A study of Mus musculus with 10 samples.

Results

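The tumour suppressor p53 and 9 of its target genes were followed through ribosome profiles of mouse embryonic stem cells. The 10 members were taken by symbol from the deposited table of 11011 genes, namely Trp53, the gene of p53, and Mdm2, Phlda3, Plk2, Ccng1, Bax, Btg2, Zmat3, Trp53inp1 and Perp. All 10 were in the table and passed the filter on low counts. Ribosome profiling sequences the stretches of mRNA that ribosomes shield from nuclease, so a footprint count rises with the amount of an mRNA as well as with its translation. No matched mRNA libraries were used here, and the share of each in a difference cannot be told apart.

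The cells were the E14 line of 129/Ola background, grown on gelatine in medium with serum and LIF and treated briefly with cycloheximide, which stops elongating ribosomes. There were 5 groups of 2 libraries, labelled wild type (WT), Dgcr8 knockout, Drosha knockout, Dicer knockout and double knockout of Ago1 and Ago2 (called Ago below). Primary miRNA transcripts are processed in the nucleus by Drosha with its partner Dgcr8 and then in the cytoplasm by Dicer, and Ago proteins carry the mature miRNA to its target mRNA. The stated purpose was to obtain ribosome profiles of WT cells and of mutants of this pathway. The labels do not say whether a knockout line was 1 clone or whether the 2 libraries of a group came from separate cultures, so p-values here reflect only how far these libraries differ, which may be technical.

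p53 is a transcription factor that is held low by Mdm2, a ubiquitin ligase whose gene p53 itself switches on, and that builds up after DNA damage and other stress. Its targets slow the cell cycle, aid repair or start apoptosis, and Trp53 mRNA is known to be abundant in embryonic stem cells. MicroRNAs of the embryonic stem cell-specific miR-290 family are known to dampen several cell cycle inhibitors and proapoptotic genes in these cells, and miR-34a is a miRNA whose gene p53 switches on.

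Total counts ran from 1754710 to 80850950, a span of 46.1 times. Drosha, Dicer1 and Ago2 were lower in the knockouts named for them, at log2 fold changes of -2.59, -2.72 and -2.94 against WT (edgeR adjusted p = 0.0067, 0.0026 and 0.0059), and Ago1 was not lower in the Ago libraries (18.9 ± 11.5 against 14.5 ± 0.246 CPM, counts scaled to the library size, mean ± SD, n = 2 each). Dgcr8 was not lower under its own label, at 145 ± 0.568 CPM in the libraries labelled Dgcr8 knockout against 32.9 ± 0.235 in WT. It was above WT in the other knockouts too, at 183 ± 19.9 CPM in Drosha, 70.3 ± 8.24 in Dicer and 69.0 ± 7.84 in Ago. Its counts therefore do not settle the label, and any direction given for the libraries labelled Dgcr8 knockout carries that doubt. Across genes, the first library labelled Dgcr8 knockout was closer to the first WT library (Pearson r 0.959 of log2 CPM) than to its own replicate (0.928), and the first Drosha and the first Ago library were each closer to a library of another knockout than to their replicate. All 10 embryonic stem cell markers were read in every library, with sums of 3607 to 4797 CPM. Markers of primitive endoderm, of which 9 of 12 were in the table, summed to 6606 and 7506 CPM in WT, with 3644 and 344 in the libraries labelled Dgcr8 knockout, and 279 to 614 in the other 6, with 0 to 2 of the 9 at 0 in a library.

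All 10 genes code for proteins, and coordinates are those of GRCm38. Trp53 (ENSMUSG00000059552) lies on chromosome 11 from 69580359 to 69591873 on the plus strand, Mdm2 (ENSMUSG00000020184) on chromosome 10 from 117688875 to 117710758 on the minus strand, and Phlda3 (ENSMUSG00000041801) on chromosome 1 from 135766119 to 135769136 on the plus strand. Plk2 (ENSMUSG00000021701) lies on chromosome 13 from 110395046 to 110400844 on the plus strand, and Zmat3 (ENSMUSG00000027663) on chromosome 3 from 32334792 to 32366014 on the minus strand. In the GENCODE M21 annotation Bax alone of the 10 shares exon sequence with another gene, Gm45808 on the same strand, and reads of that pair could not be told apart.

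Sequences were searched for the marks of both arms of the comparison, p53 binding and miRNA binding. RefSeq promoters of GRCm38.p6, from 250 bases before to 50 after the start site, were held for 7 of the 10 members and for 8730 genes of the table. They come from the C57BL/6 reference, not from the 129/Ola cells. The known p53 site is a pair of 10-base half-sites, and the stretch closest to it, without a spacer, is shown for the 3 members with at most 3 mismatches, a level that 5.48% of the 8730 promoters reach. Capitals mark letters that match the site, which reads alike on both strands.
Ccng1: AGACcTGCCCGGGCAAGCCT
Trp53: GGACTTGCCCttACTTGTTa
Bax: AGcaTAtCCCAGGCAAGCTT
The Ccng1 stretch matched in 19 of 20 letters and began 195 bases before the start site (chr11:40755462-40755481, minus strand). The Trp53 stretch (chr11:69580284-69580303, plus strand) and the Bax stretch (chr7:45467090-45467109, minus strand) each matched in 17. Btg2 had 4 mismatches at best, and Mdm2, Phlda3 and Plk2 had 5. A match is a description of letters and does not show binding, and a p53 site outside this window was not looked for.

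In 3' UTRs of GENCODE M21, matches to the seed (bases 2 to 8) of 12 miRNA families were sought as 7-base words. The family known to dominate embryonic stem cells is shown with the member 3' UTRs that hold its word, AGCACTT, which 16% of 10666 genes with a 3' UTR hold. Capitals mark the seed in the miRNA and the matching word in the targets.
miR-294-3p: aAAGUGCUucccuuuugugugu
miR-295-3p: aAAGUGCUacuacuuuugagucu
Ccng1: gtagttactgaaatAGCACTTctttaaat
Zmat3: ctgtgggtttccgaAGCACTTggaagttc
Trp53inp1: agaatgaacagcacAGCACTTtgccaaaa
So 3 of the 10 members held the word, once each. The word of miR-34a-5p, CACTGCC, was in 15.6% of the 3' UTRs and in Bax alone among the members, 8 bases into a 3' UTR of 165 bases.
miR-34a-5p: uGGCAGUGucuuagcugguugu
Bax: ggcctccCACTGCCttggactg
The word of miR-15a and miR-16, TGCTGCT, was in 23% of the 3' UTRs and in those of Phlda3, Ccng1, Btg2 and Zmat3. Trp53, Mdm2, Plk2 and Perp held none of the 12 words, and their 3' UTRs are 441 to 1335 bases long against 4420 in Trp53inp1 and 6692 in Zmat3.

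Trp53 itself was among the most heavily read genes. Per kilobase of coding sequence, Trp53 in WT stood at 547 ± 31.1 CPM (n = 2), above 98.2% of the 10967 genes with a coding length, where the median gene stood at 20.8. Footprints of Trp53 were 614 and 666 CPM in WT, with 595 and 1124 in the libraries labelled Dgcr8 knockout, 761 and 1178 in Drosha, and 728 and 910 in Dicer. In Ago it had 795 and 1003. The Drosha, Dicer and Ago libraries all lay above both WT libraries, and 1 of the 2 libraries labelled Dgcr8 knockout lay below them. The log2 fold changes against WT were 0.42 (SE 0.35), 0.60 (SE 0.35), 0.36 (SE 0.35) and 0.49 (SE 0.35) in that order, with edgeR adjusted p of 0.76, 0.38, 0.56 and 0.48. Trp53 therefore passed the threshold in none of the 4, and its order from Drosha down to WT was not resolved, since the SD reached 374 CPM in a group.

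Mdm2, which binds p53 and marks it for degradation, had 113 and 119 CPM in WT. It had 220 and 136 in the libraries labelled Dgcr8 knockout, 127 and 170 in Drosha, and 86.4 and 81.1 in Dicer. Its values in Ago were 104 and 50.6. The first 4 of these knockout libraries lay above WT and the other 4 below it. None of the differences passed, with log2 fold changes of 0.62 (SE 0.36), 0.36 (SE 0.36), -0.47 (SE 0.36) and -0.58 (SE 0.36) and edgeR adjusted p from 0.41 to 0.64. Set against Trp53 within each library, per kilobase of coding sequence, Mdm2 footprints were 14.6% and 14.3% of those of Trp53 in WT. The share was 13.3% and 11.5% in Drosha and 9.47% and 7.11% in Dicer. In Ago it was 10.5% and 4.03%, so that all 6 lay below both WT libraries. In the libraries labelled Dgcr8 knockout it was 29.4% and 9.67%, on both sides of WT. The share was not tested, and how often the shares of other gene pairs lay apart in this way was not counted.

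**Figure D1:**
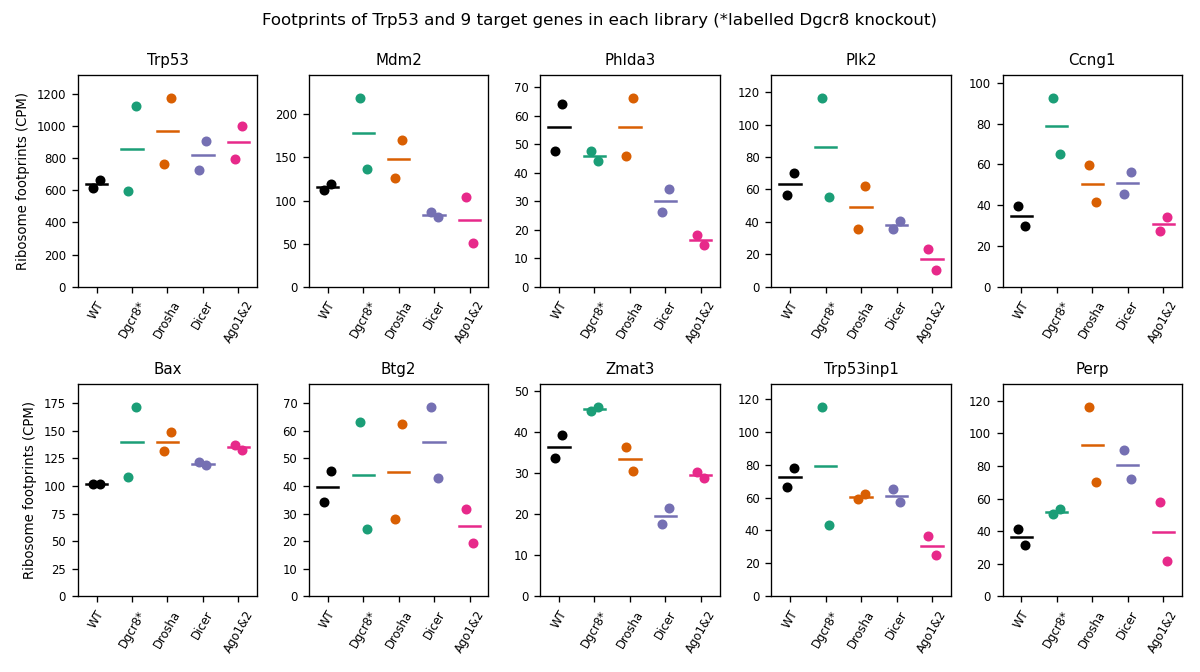
Ribosome footprints in CPM (vertical axes, from 0) of Trp53 and the 9 target genes in each library, with 1 point a library and a bar at the mean of the 2 libraries of a group. Phlda3 and Plk2 are lowest in the 2 Ago libraries, and Trp53 lies at 595 to 1178 CPM throughout.

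The clearest change among the targets was in the Ago libraries, where Phlda3 and Plk2 were lower. Phlda3 codes for a small PH-domain protein that keeps the kinase Akt off the membrane. It had 47.6 and 64.3 CPM in WT, with 47.8 and 44.2 in the libraries labelled Dgcr8 knockout, 45.9 and 66.4 in Drosha, and 26.3 and 34.2 in Dicer. The Ago libraries had 18.3 and 14.7. The Dicer and Ago libraries lay below all WT libraries, and the Ago libraries below every other library. Against WT, Phlda3 fell in Ago by 1.77 on the log2 scale (SE 0.31, edgeR adjusted p = 0.017), a level 3.40 times lower. In Dicer the log2 fold change was -0.90 (SE 0.31, edgeR adjusted p = 0.087), and it was -0.28 and 0.01 in the libraries labelled Dgcr8 knockout and in Drosha. The call in Ago was lost without the first WT library (adjusted p = 0.060), the second WT library (0.22) or the second Ago library (0.066), at log2 values from -1.95 to -1.53.

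Plk2, a polo-like kinase that acts in centriole duplication, had 56.9 and 70.4 CPM in WT, with 117 and 55.6 in the libraries labelled Dgcr8 knockout, 35.9 and 62.0 in Drosha, and 35.4 and 40.3 in Dicer. In Ago it had 23.1 and 10.5. Both Ago libraries lay below all the others. Plk2 fell in Ago by 1.93 on the log2 scale (SE 0.45, edgeR adjusted p = 0.045), a level 3.81 times lower. The other log2 fold changes were 0.44 for the Dgcr8 label, -0.38 for Drosha and -0.76 for Dicer, with edgeR adjusted p of 0.81, 0.70 and 0.30. The call in Ago was lost without the first (0.13) or second (0.33) WT library, the second Ago library (0.15), the first (0.063) or second (0.070) Dicer library, and with a term for the library number in the model (0.051). These 2 genes were the members that edgeR called in the 4 comparisons with WT, 2 of 10 in Ago, where 0.902% of all genes were called lower and 2.88% in either direction.

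Marker levels of other cell types moved between WT and the knockouts as well. In Ago, the summed markers of primitive endoderm were at 614 and 466 CPM against 6606 and 7506 in WT, with 2 and 0 of the 9 markers at 0. In Drosha they summed to 485 and 604 CPM with 1 and 0 at 0, and Phlda3 was there at 45.9 and 66.4 CPM and Plk2 at 35.9 and 62.0. In Dicer they were at 390 and 279 CPM with 1 and 2 at 0, and there both genes lay below WT, Phlda3 at 26.3 and 34.2 CPM and Plk2 at 35.4 and 40.3. In the libraries labelled Dgcr8 knockout they were at 3644 and 344 CPM, beside Phlda3 at 47.8 and 44.2 and Plk2 at 117 and 55.6. Lama1 held most of the sums in Drosha and Ago, with means of 400 and 475 CPM. Of the 9 markers, 7 had log2 values above 0 in Drosha against Ago and 2 below, with 0 called. The part of primitive endoderm cells in the lower Phlda3 and Plk2 of Ago was not tested. In bulk libraries fewer cells of a type and less RNA per cell cannot be told apart. Fibroblast markers, 4 of 8 in the table, summed to 248 and 220 CPM in WT and 158 and 85.8 in Ago, and trophectoderm markers, 5 of 10 in the table, to 150 and 182 in WT and 184 and 205 in Ago, all with 0 markers at 0. The members of these lists did not move together. Of the 4 fibroblast markers, Col6a2 and Fbln2 lay above WT in both Ago libraries and Mmp2 and Thy1 below, with a median log2 fold change of -0.04. Of the 5 trophectoderm markers 2 had log2 fold changes above 0 and 3 below, with a median of -0.20, and Tfap2c went from a mean of 45.9 to 91.1 CPM.

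**Figure D2:**
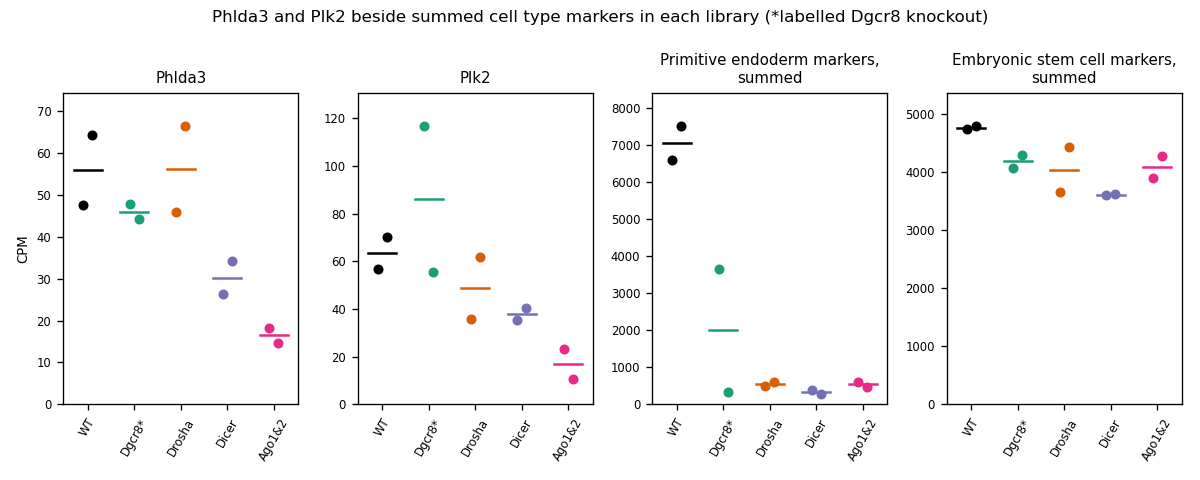
Footprints of Phlda3 and Plk2 beside the summed markers of primitive endoderm and of embryonic stem cells (CPM, vertical axes from 0), with 1 point a library and a bar at each group mean. The Drosha, Dicer and Ago libraries have low primitive endoderm sums of 279 to 614 CPM, and Phlda3 lies at 45.9 and 66.4 CPM in Drosha, 26.3 and 34.2 CPM in Dicer and 18.3 and 14.7 CPM in Ago.

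Trp53inp1, whose protein helps p53 choose proapoptotic targets, was also low in Ago without passing the threshold by edgeR. It had 66.3 and 78.1 CPM in WT, with 115 and 43.4 in the libraries labelled Dgcr8 knockout, 59.1 and 62.0 in Drosha, and 65.1 and 57.4 in Dicer. Its values in Ago were 36.5 and 24.9. The Drosha, Dicer and Ago libraries lay below both WT libraries. In Ago the log2 fold change was -1.24 (SE 0.40, edgeR adjusted p = 0.12), and it passed without the first (0.036) or the second (0.035) library labelled Dgcr8 knockout, without both (0.035), with the 2 groups compared alone (0.042) and by DESeq2 (0.041). The 2 libraries labelled Dgcr8 knockout lay on both sides of WT.

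Ccng1 codes for cyclin G1, which recruits a phosphatase to Mdm2, and its promoter holds the closest p53 match shown above. It had 39.6 and 29.6 CPM in WT and 92.8 and 65.1 in the libraries labelled Dgcr8 knockout. In Drosha it had 59.6 and 41.5, in Dicer 45.3 and 56.3, and in Ago 27.5 and 34.3. Ccng1 was thus above WT in every library labelled Dgcr8, Drosha or Dicer knockout and overlapped WT in Ago. The log2 fold change was 1.20 (SE 0.32) in the libraries labelled Dgcr8 knockout, with an edgeR adjusted p of 0.27, and 0.55 in both Drosha (SE 0.32, adjusted p = 0.39) and Dicer (SE 0.32, adjusted p = 0.29).

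Zmat3, a zinc finger protein that binds RNA and alters splicing, was lowest in Dicer. It had 33.6 and 39.2 CPM in WT, with 45.2 and 46.0 in the libraries labelled Dgcr8 knockout, 36.4 and 30.6 in Drosha, and 17.6 and 21.5 in Dicer. The Ago libraries had 30.3 and 28.8. Both Dicer libraries lay below every other library, and the libraries labelled Dgcr8 knockout above every other. Against WT the log2 fold change in Dicer was -0.91 (SE 0.28, edgeR adjusted p = 0.061). Between the libraries labelled Dgcr8 knockout and those of Dicer it was 1.23 (SE 0.29, edgeR adjusted p = 0.036), the only member called in the 6 comparisons between knockouts. That call was lost without either library of WT, of the Dgcr8 label or of Dicer, at adjusted p from 0.074 to 0.41.

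Ccng1, Zmat3 and Trp53inp1, the members with the miR-294 word, took different directions in Drosha and in Dicer. In Dicer their log2 fold changes against WT were 0.55, -0.91 and -0.24, and in Drosha 0.55, -0.12 and -0.25. In Ago all were below 0, at -0.16, -0.30 and -1.24, as were 7 of all 10 members. In the libraries labelled Dgcr8 knockout all were above 0, at 1.20, 0.32 and 0.14, as were 9 of all 10 members. Members without the word thus went the same way in these 2 groups. By edgeR none of the values of Ccng1, Zmat3 and Trp53inp1 passed. By DESeq2 Zmat3 in Dicer (adjusted p = 0.040) and Trp53inp1 in Ago (0.041) did, as did Ccng1 in the libraries labelled Dgcr8 knockout.

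Bax and Perp, which act in apoptosis, had higher means than WT in all 4 knockout groups. There was no call by edgeR in the fit reported and 1 by DESeq2, of Perp in Drosha (adjusted p = 0.034). Bax, which opens the outer mitochondrial membrane, had 102 and 101 CPM in WT and 119 to 149 in the 6 Drosha, Dicer and Ago libraries, all above WT. The libraries labelled Dgcr8 knockout had 108 and 172. Its log2 fold changes were between 0.25 and 0.46 (SE 0.27 to 0.28), with edgeR adjusted p of 0.39 or more. Perp, a membrane protein of cell junctions that also serves p53-dependent apoptosis, had 41.6 and 31.2 CPM in WT, with 50.4 and 53.6 in the libraries labelled Dgcr8 knockout, 116 and 69.9 in Drosha, and 90.0 and 71.7 in Dicer. In Ago it had 57.6 and 21.4. It lay above WT in all but the Ago libraries, which spanned WT. The log2 fold change was 1.35 in Drosha (SE 0.43, edgeR adjusted p = 0.11) and 1.16 in Dicer (SE 0.43, edgeR adjusted p = 0.11), and 0.12 in Ago. With the 2 groups compared alone, Perp passed in Dicer by edgeR. Leaving out 1 library at a time, its log2 values were 0.94 to 1.68 in Drosha and 0.96 to 1.36 in Dicer. Perp is an epithelial gene, and trophectoderm markers summed to 377 and 375 CPM in Drosha and 857 and 618 in Dicer against 150 and 182 in WT. That sum is of the keratins Krt7, Krt8, Krt18 and Krt19 and of Tfap2c. Cdx2, Elf5, Eomes, Gata3 and Hand1 were not in the table used here, so it does not identify trophectoderm cells. The part of such cells in the level of Perp was not tested.

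Btg2, an antiproliferative protein that promotes mRNA deadenylation, varied widely between replicates. It ranged from 24.5 to 63.4 CPM within the libraries labelled Dgcr8 knockout and from 28 to 62.5 within Drosha, and had 34.3 and 45.3 in WT. In Dicer it had 68.6 and 43.0 and in Ago 31.6 and 19.2. Only the Ago libraries did not overlap WT, with a log2 fold change of -0.65 (SE 0.48, edgeR adjusted p = 0.50).

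**Figure D3:**
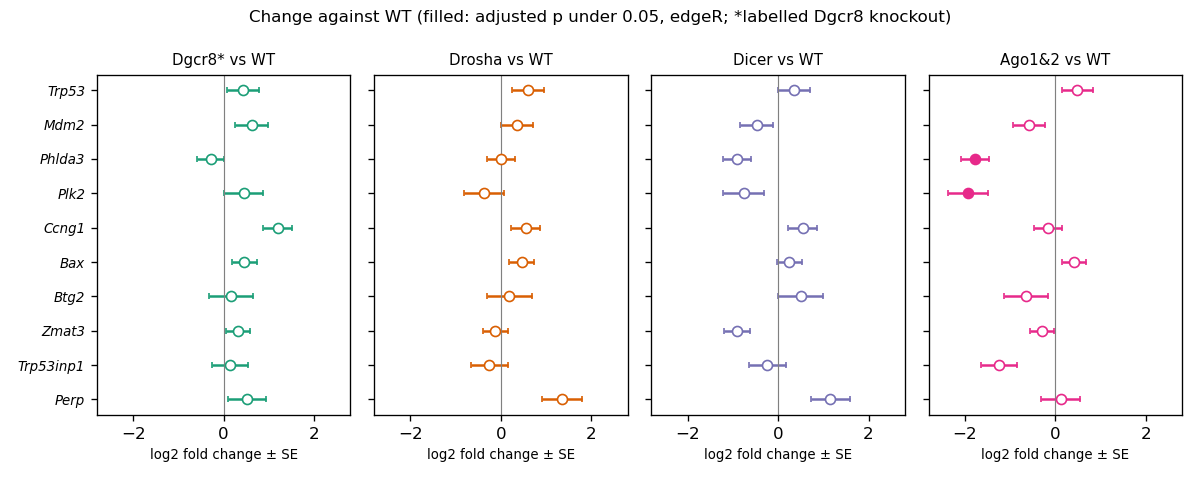
Log2 fold change against WT (horizontal axis) with its SE (bars) for each member in the 4 knockout groups, each of 2 libraries against 2. Filled points passed an edgeR adjusted p of 0.05, which Phlda3 and Plk2 did in Ago and no other member did.

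Counted over the members, the 4 comparisons with WT share the WT libraries and are given side by side. In the libraries labelled Dgcr8 knockout 0 of 10 members were called by edgeR, against 0.0729% of all genes. In Drosha 0 were called against 3.44%, in Dicer 0 against 11.1%, and for the mean of the 4 knockouts 0 against 7.07%. At an unadjusted p under 0.05 the counts were 1, 1, 3 and 2 members, against 9.81%, 19.2%, 27% and 23.7% of all genes, which are shares near those of the members. DESeq2 called 1 member in each of the first 3 and 0 for the mean, where it called 160, 972, 1874 and 1444 of all genes. Limma-voom called 0 members in all 4, where it called 15 and 111 of all genes in the first 2. Its all-gene calls in Dicer and for the mean are not given here, so those member counts have no share beside them. The member called by DESeq2 was Ccng1 in the libraries labelled Dgcr8 knockout (adjusted p = 0.038), Perp in Drosha (0.034) and Zmat3 in Dicer (0.040). In Ago edgeR called 2 members against 2.88% of all genes, and an unadjusted p under 0.05 held 3 members against 19.7%. There DESeq2 called 3 members, with Trp53inp1 the third (0.041), and 932 of all genes. Limma-voom called 2 members and 942 of all genes in Ago.

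The median log2 fold change of the 10 members was 0.43 in the libraries labelled Dgcr8 knockout, 0.27 in Drosha, 0.01 in Dicer and -0.44 in Ago, where the median of all genes was 0.02, -0.01, -0.00 and 0.04. Members whose 2 libraries both lay above both WT libraries numbered 5 in the libraries labelled Dgcr8 knockout, 5 in Drosha, 4 in Dicer and 2 in Ago. Among all genes 22%, 25.9%, 32.7% and 27.2% did so. Members with both libraries below both WT libraries numbered 0, 1, 5 and 6 in the same order, and among all genes 22.9%, 27.9%, 34.6% and 26.1% did so. The 6 in Ago were Mdm2, Phlda3, Plk2, Btg2, Zmat3 and Trp53inp1, while Trp53 and Bax lay above WT there.

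Between knockouts, edgeR called Zmat3 in the libraries labelled Dgcr8 knockout against Dicer, 1 of 10 members against 4.07% of all genes. It called 0 members in the other 5, against 0.501% for Dgcr8 with Drosha, 0.483% for Dgcr8 with Ago, 0.00911% for Drosha with Dicer, 0.0455% for Drosha with Ago and 0.547% for Dicer with Ago. At an unadjusted p under 0.05 these 5 held 0, 6, 3, 6 and 6 members, against 11.5%, 12.5%, 7.55%, 9.25% and 12.3% of all genes. In the same order DESeq2 called 0, 5, 0, 1 and 0, and limma-voom called 0, 3, 0, 0 and 0. The share of all genes that these 2 tools called between knockouts was not counted. Their member counts therefore cannot be set against it, and the edgeR shares do not stand in for it. Plk2 came nearest, with a log2 difference of 2.37 (SE 0.46, edgeR adjusted p = 0.051) between the libraries labelled Dgcr8 knockout and Ago. For Phlda3 the log2 difference between Drosha and Ago was 1.77 (SE 0.32, edgeR adjusted p = 0.077).

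Across the 10 libraries, which share 2 replicates a group, the levels of some members varied together. Pearson's r of log2 CPM was 0.90 for Plk2 with Trp53inp1, 0.87 for Plk2 with Mdm2, 0.87 for Plk2 with Phlda3 and 0.85 for Trp53 with Bax. Trp53 and Trp53inp1 ran opposite, at -0.61. Of the 10778 genes compared with Trp53, those closest to it were Tfap2c (0.979), Patz1 (0.958), Tada3 (0.953), Hcfc1 (0.952) and Adsl (0.951). These values describe the libraries, and each rests on the same 10.

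The wider p53 pathway was read from lists of other target genes, regulators and Bcl2 proteins. Of 48 other p53 target genes 46 were tested, with Fas and Lif not in the table used here. In Dicer 3 rose and 1 fell, in Ago 0 rose and 2 fell, and in Drosha and in the libraries labelled Dgcr8 knockout edgeR called 0. Of all genes 7.35% rose and 3.76% fell in Dicer, 1.98% and 0.902% in Ago, and 3.44% and 0.0729% were called in the other two. At an unadjusted p under 0.05 the latter held 11 and 4, against 19.2% and 9.81% of all genes, DESeq2 called 3 and 0, and limma-voom 0 and 0. The medians of the list were -0.05 in the libraries labelled Dgcr8 knockout, 0.04 in Drosha, -0.00 in Dicer and -0.13 in Ago. Cdkn1a, the cell cycle inhibitor p21 and the best known target, had 34.8 and 54.8 CPM in WT, with 38.7 and 35.5 in the libraries labelled Dgcr8 knockout, and 42.7 and 39.3 in Drosha. In Dicer it had 75.5 and 66.7, and in Ago 45.8 and 79.1. It was above WT in both Dicer libraries, at a log2 fold change of 0.67 (SE 0.33, edgeR adjusted p = 0.22).

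Of the targets called in Dicer, Thbs1, a matrix protein that restrains vessel growth, rose from 15.6 and 11.2 CPM in WT to 118 and 87.7 (log2 2.95, SE 0.63, edgeR adjusted p = 0.013). Ak1, an adenylate kinase, rose from 19.8 and 19.7 CPM to 73.4 and 60.1 (log2 1.76, SE 0.47, edgeR adjusted p = 0.033). Rps27l, a ribosomal protein paralog, fell from 119 and 155 CPM to 40.9 and 53 (log2 -1.55, SE 0.39, edgeR adjusted p = 0.026), and reads of its near copy Rps27 could have been split with it. Thbs1 is also a gene of fibroblasts and endothelium. The summed fibroblast markers were lower in Dicer than in WT, at 85.4 and 41.4 against 248 and 220 CPM. In WT that sum was mostly Thy1 and Mmp2, at means of 120 and 94.1 CPM. Col1a1, Col1a2, Col3a1 and Postn were not in the table used here. The trophectoderm markers were higher in Dicer, at 857 and 618 against 150 and 182. The part of such cells was not tested, and these sums do not identify them.

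In Ago, Dram1, a lysosomal membrane protein of autophagy, fell from 25.1 and 17.6 CPM in WT to 1.56 and 0.415, counts of 22 and 14 (log2 -4.53, SE 0.98, edgeR adjusted p = 0.033). In Drosha it was also below WT, at 2.64 and 1.75 CPM, counts of 5 and 4, without a call. The libraries labelled Dgcr8 knockout had 23.2 and 1.99 CPM of Dram1, and the Dicer libraries 17.6 and 8.83. Ercc5, an endonuclease of nucleotide excision repair, fell from 48.6 and 78.7 CPM to 23.6 and 27.8 (log2 -1.31, SE 0.30, edgeR adjusted p = 0.044). Thbs1 lost its call without either WT library or the first Dicer library, and Ak1 and Rps27l without either library of WT or Dicer. Dram1 lost it without either library of WT or Ago, and Ercc5 without any of these or either Dicer library. The adjusted p rose to between 0.14 and 0.48 at most for these 5.

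All 32 regulators of p53 were tested, and Cdkn2a had the largest change in Drosha and Dicer. Its 2 products, an inhibitor of cyclin-dependent kinases and the Mdm2 antagonist Arf, share exons, so counts over the gene do not tell them apart. Cdkn2a had 6.91 and 6.60 CPM in WT, with 7.80 and 18.7 in the libraries labelled Dgcr8 knockout, 58.6 and 63.8 in Drosha, and 46.9 and 48.0 in Dicer. Its values in Ago were 19 and 20.7. It was above WT in all 8 knockout libraries, with the Drosha and Dicer libraries above all others. Cdkn2a rose in Drosha (log2 3.18, SE 0.41, edgeR adjusted p = 0.0067) and in Dicer (log2 2.81, SE 0.40, edgeR adjusted p = 0.0026), and had a log2 fold change of 1.56 in Ago (SE 0.38, edgeR adjusted p = 0.053). In Dicer its call held in all 19 alternatives, and in Drosha it was lost without the first or the second WT library (up to 0.15).

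Atr, the kinase that senses stalled replication forks, rose in Dicer from 59.0 and 47.2 to 132 and 124 CPM (log2 1.27, SE 0.28, edgeR adjusted p = 0.015), a call lost without either library of WT or Dicer (up to 0.18). Mdm4, which blocks the activation domain of p53, had 28.1 and 40.5 CPM in WT and 109 and 111 in Dicer (log2 1.68, SE 0.55, edgeR adjusted p = 0.069). For the regulators edgeR thus called 0 in the libraries labelled Dgcr8 knockout, 1 in Drosha, 2 in Dicer and 0 in Ago, against 0.0729%, 3.44%, 11.1% and 2.88% of all genes, and the medians were 0.11, 0.01, 0.12 and 0.10. At an unadjusted p under 0.05 the first and last held 2 and 6, against 9.81% and 19.7% of all genes, with 1 and 2 called by DESeq2 and 0 and 1 by limma-voom. Trp63 and Trp73, the relatives of p53, were not in the table used here.

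Of the 13 proteins of the Bcl2 family besides Bax, 9 were tested. In Dicer 2 rose and 2 fell, against 7.35% and 3.76% of all genes, and in Ago 1 fell, against 0.902%. Bid, a BH3-only protein that activates Bax, had 43.5 and 46.6 CPM in WT, with 27.0 and 24.1 in the libraries labelled Dgcr8 knockout, 16.4 and 23.6 in Drosha, and 14.8 and 14.9 in Dicer. The Ago libraries had 17.5 and 18.7. All 8 knockout libraries lay below WT, and Bid fell in Dicer (log2 -1.60, SE 0.31, edgeR adjusted p = 0.0090) and in Ago (log2 -1.32, SE 0.30, edgeR adjusted p = 0.039). Bik, another BH3-only protein, rose in Dicer from 2.67 and 2.82 to 9.29 and 9.38 CPM (log2 1.76, SE 0.48, edgeR adjusted p = 0.038). Bcl2l1, which codes for the survival protein Bcl-xL, had 14.1 and 15.9 CPM in WT and 260 and 34.2 in Dicer (log2 3.31, SE 0.83, edgeR adjusted p = 0.027), so that 1 Dicer library carries most of the rise. Without that first Dicer library the log2 fold change was 1.20 (edgeR adjusted p = 0.45). Bok had 4.79 and 4.11 CPM in WT and counts of 2 and 1 in Dicer (log2 -3.30, edgeR adjusted p = 0.045). The ratio of its pooled levels, WT to Dicer, was 9.89 with an exact 95% binomial interval of 3.32 to 48.5, which covers counting error only. Bid and Bik lost their calls in Dicer without either library of WT or Dicer, Bid in Ago without any library of WT, Ago or Dicer, Bcl2l1 also without either WT library, and Bok in 8 of 19 alternatives. In the libraries labelled Dgcr8 knockout and in Drosha edgeR called 0 of the 9, where an unadjusted p under 0.05 held 2 and 3, against 9.81% and 19.2% of all genes, DESeq2 called 0 and 2, and limma-voom 0 and 0. The family's medians were -0.32, -0.33, -0.13 and -0.54.

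**Figure D4:**
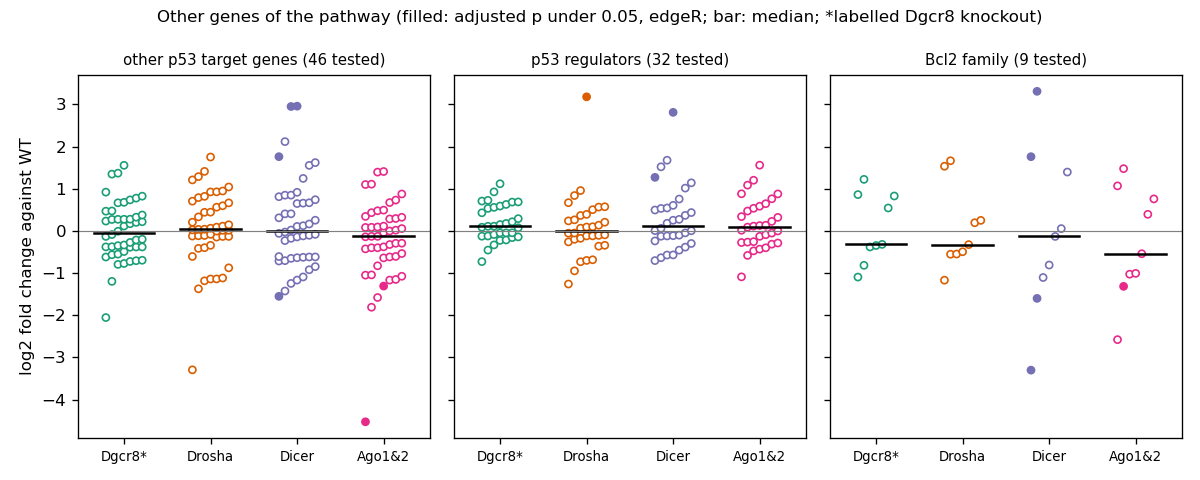
Log2 fold change against WT (vertical axis) of 46 other p53 target genes, 32 regulators and 9 Bcl2 proteins in the 4 knockout groups, with 1 point a gene, filled at an edgeR adjusted p under 0.05, and a bar at the median. The medians lie between -0.54 and 0.12, and Cdkn2a is the filled point at 3.18 in Drosha and at 2.81 in Dicer.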

How the data were processed

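Ribosome footprints were sequenced by the authors from 10 libraries, 2 in each of 5 groups. The authors deposited counts, whole numbers of reads for each gene, without normalization. The submitters' processing notes name Trimmomatic, Bowtie2 and the builds mm10 (GRCm38) and dm6 (BDGP6). Versions, counting tool, annotation and strand setting are not given in the sources used here. Columns were matched to labels by library number, and the Ago columns carry other replicate numbers than their titles, which were followed. All 11011 identifiers matched the annotation, and 16 symbols turned into dates were restored.

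In R 4.3.3, edgeR 4.0.16 scaled libraries by TMM, filterByExpr kept 10978 genes, and quasi-likelihood tests used a fit of the 5 group means to the 10 libraries (5 residual degrees of freedom). The 11 comparisons were each adjusted by Benjamini-Hochberg over all 10978 genes, at 0.05 and 2-sided. The SE divides the size of the log2 fold change by the root of F. CPM use the scaled sizes. On simulated data with 200 changed genes, 4-fold changes were recovered in 56%, 58%, 45% and 63% of cases for the libraries labelled Dgcr8 knockout, Drosha, Dicer and Ago against WT, and 2-fold changes in 6%, 2%, 6% and 5%, over 10961 to 10963 genes.

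Alternatives used total-count and RLE scaling, DESeq2 1.42.0, limma-voom (limma 3.58.1), no filter, 2 groups only, terms for replicate or library number, and each library left out. The term for library number set libraries 28 to 31 against all later ones. It split the libraries as the replicate term did, except that both Ago libraries fell in the later set. Leaving out both libraries labelled Dgcr8 knockout was chosen after seeing the data. Members and lists were chosen with earlier results of these data known. Named were all members, up to 4 genes per list and comparison with WT with the smallest adjusted p past the threshold, the targeted genes, and the 5 genes closest to Trp53. Cdkn1a, Mdm4 and single marker genes of other cell types fall outside that rule and were named after their values were seen. A result that this rule names is not reported here.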

Additional observations from a re-analysis of the deposited data

Results flagged for a closer look

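Knockout groups differed from each other in the log2 ratio of 2 genes, by edgeR tests of the difference itself, adjusted over all genes. Zmat3 was higher in the libraries labelled Dgcr8 knockout than in Dicer by 1.23 (SE 0.29, edgeR adjusted p = 0.036), at 45.6 against 19.6 CPM. Cdkn2a was lower in the libraries labelled Dgcr8 knockout than in Drosha (log2 -2.25, SE 0.39, edgeR adjusted p = 0.044) and than in Dicer (log2 -1.89, SE 0.39, edgeR adjusted p = 0.023), at 13.3 against 61.2 and 47.4 CPM. Each group had 2 libraries, so single libraries that stand apart within a group were not looked for.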

How the results depend on the processing

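With the 2 groups compared alone, 4 members passed in Dicer (Phlda3, Plk2, Zmat3 and Perp), 0 between the libraries labelled Dgcr8 knockout and Dicer, and 0, 3224 and 536 of all genes in the comparisons of Dgcr8, Dicer and Ago with WT. The comparisons of Dgcr8, Drosha, Dicer, Ago and the mean of the 4 with WT called 8, 378, 1220, 316 and 776 of all genes in the fit reported. DESeq2 called 160, 972, 1874, 932 and 1444, with 1 member in each of the first 3, 5 members for Dgcr8 against Ago and 1 for Drosha against Ago. Limma-voom called 15, 111 and 942 in the comparisons of Dgcr8, Drosha and Ago with WT, 3 members for Dgcr8 against Ago and 0 for Dgcr8 against Dicer, and turned Perp in Ago to -0.061. Total-count and RLE scaling each called 1 member for Dgcr8 against Ago, and no scaling moved the median of all genes by more than 0.0673. Without both libraries labelled Dgcr8 knockout, 491 genes were called in Ago. For most of these changes the cause was not tested.

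The replicate numbers of the titles are not said to pair libraries, and deviations of same-numbered libraries correlated at 0.061 to 0.287 between groups. With that replicate block, calls with WT were 14, 770, 1877, 738 and 1410. The members called were 1 in Drosha, 2 in Dicer, 1 for the mean, 3 for Dgcr8 against Ago and 1 for Drosha against Ago. With a term for library number, 1 member was called in Ago, 1 for the mean, 1 for Dgcr8 against Ago and 1 for Drosha against Ago. All-gene calls with that term are not given here. Between knockouts they were not counted in any alternative, so those member counts have no share beside them.

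Leaving out 1 library at a time, all-gene calls ran from 0 to 107 in Dgcr8, 1 to 514 in Drosha, 139 to 1503 in Dicer, 3 to 494 in Ago and 3 to 1100 for the mean. Members called ran from 0 to 1 in Drosha and in Dicer, 0 to 3 in Ago, 0 to 1 for Dgcr8 against Dicer and 0 to 2 for Dgcr8 against Ago. Values that changed sign, none of them called, ranged in Dgcr8 from -0.11 to 0.81 for Trp53, -0.20 to 0.87 for Plk2, -0.70 to 0.67 for Btg2 and -0.73 to 0.67 for Trp53inp1. In Drosha they ranged from -0.28 to 0.25 for Phlda3, -0.51 to 0.65 for Btg2 and -0.25 to 0.0054 for Zmat3, in Ago from -0.35 to 0.078 for Ccng1 and -0.76 to 0.66 for Perp, and for the mean from -0.17 to 0.26 for Btg2 and -0.17 to 0.090 for Mdm2. With 2 libraries a group, most 2-fold changes were missed in the simulated data, which held 200 changed genes. More genes than that were called in Drosha, Dicer and Ago, so the simulated shares may not hold there. The part of library depth was not tested.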
